A study of Mus musculus with 12 samples.

Results

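The integrated stress response was followed through 10 of its genes in mouse livers of 3 ages. The genes Atf4, Atf5, Ddit3, Asns, Chac1, Trib3, Ppp1r15a, Sesn2, Ddit4 and Eif4ebp1 were chosen by name, as transcription factors, targets and feedback regulators of the response, and were 10 of the 53465 genes in the count table. All 10 had counts in every liver and all 10 entered every test of the main fit. RNA-seq reads were counted per gene in whole liver of C57BL/6N mice aged 3 months, called young, 12 months, called middle-aged, or 18 months, called aged, with 4 livers per age and 1 animal per library. The study's methods describe its animals as male, the labels name no transgene or treatment, and age was the only difference between groups that they gave. The comparisons asked how steady-state RNA levels differ with age.

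The integrated stress response is the program that cells start when amino acids run short, unfolded proteins gather in the endoplasmic reticulum, haem is lacking or mitochondria are disturbed. Dedicated kinases sense these states and phosphorylate the initiation factor eIF2, which lowers protein synthesis in general but favours translation of a few mRNAs, among them those of the transcription factors ATF4 and ATF5. ATF4 then raises genes of amino acid supply, of redox balance and of recovery from the translational block. In liver the response is known from fasting, dietary amino acid shortage and fat overload, and since ATF4 and ATF5 are controlled largely at translation, RNA levels report the program through its targets more than through these factors themselves.

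Each library held between 8124312 and 10527159 gene counts, and the floor of 3 counts corresponded to 0.285 to 0.369 CPM (counts scaled to a common library total). Mitochondrial genes took 5.48 to 19.16% of gene counts and spike-in transcripts 1.589 to 10.633% of all counts, with the highest share of both in young replicate 2. Young replicate 3 had the most genes detected, 22284 against 16361 to 19982 in the other libraries. The spike-in profiles fell into 2 sets that crossed the ages, replicates 1 and 2 of each age (set A) and replicates 3 and 4 (set B), whose members correlated at 0.9968 or more with each other and at 0.9252 or less with the other set over 31 spike-ins. What the sets stand for is not given in the sources used here. No replicates of an age agreed within sampling noise. The 8 hepatocyte markers summed to 73800 to 91500 CPM in young, 91600 to 96800 in middle-aged and 88800 to 115000 in aged livers, and none was at 0.

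Of the 10 genes, only Atf5 passed the test between any ages, and it was higher in aged livers. It was called among the 10 in aged versus young livers (DESeq2 adjusted p under 0.05), where 3.58% of all genes tested were called and 1.87% were called higher, and again in aged versus middle-aged livers, where 1.14% were called and 0.537% were called higher. Between middle-aged and young livers none of the 10 passed (DESeq2), against 6.41% of all genes, and 1 had an unadjusted p under 0.05. In the test across the 3 ages Atf5 was again the single gene called, against 6.96% of all genes. The unadjusted p was under 0.05 for 2 of the 10 genes in aged versus young livers, for 4 in aged versus middle-aged livers and for 4 across the 3 ages. With edgeR's quasi-likelihood test none of the 10 was called in any comparison, while the same numbers of genes, 2, 1, 4 and 4, had an unadjusted p under 0.05. By that test 1.42%, 2.31%, 0.107% and 1.93% of all genes were called, in the order aged versus young, middle-aged versus young, aged versus middle-aged and 3 ages. The pairwise comparisons share their groups, so each is given with its own values.

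**Figure D1:**
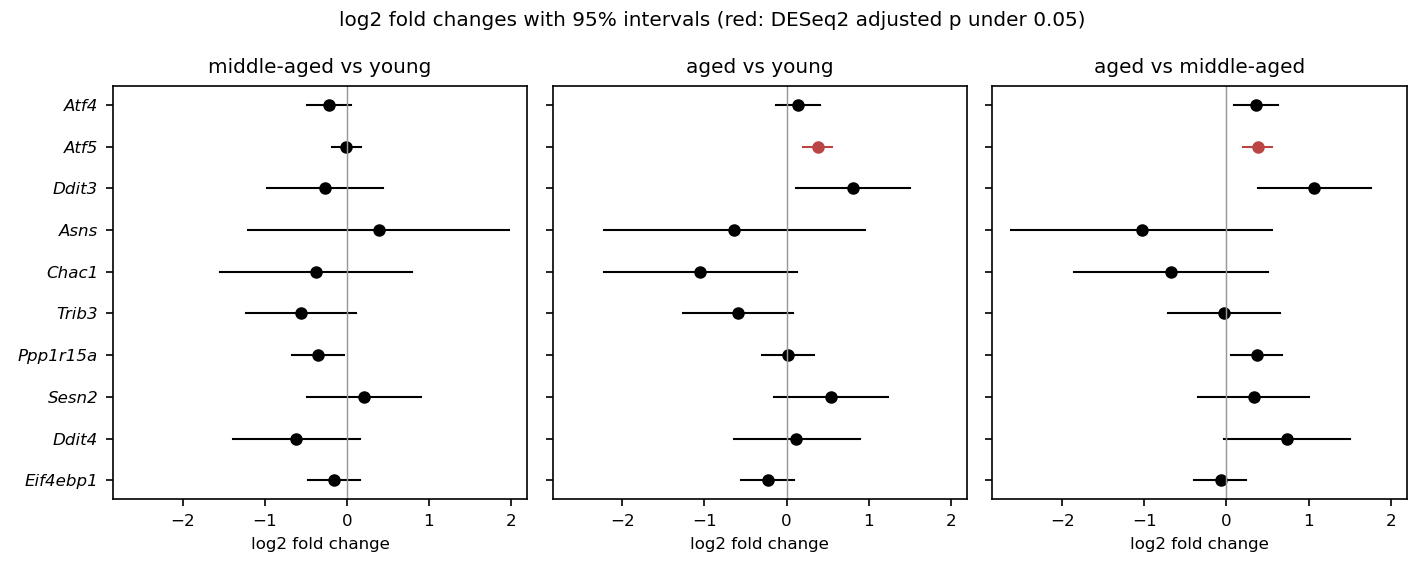
log2 fold changes of the 10 genes (horizontal axis) for the 3 pairs of ages, from the DESeq2 fit of all 12 livers, with points for estimates and lines for 95% intervals. Atf5 is the single gene in red, at 0.38 in both comparisons with aged livers, and the intervals of Asns and Chac1 are the widest.

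The median log2 fold change of the 10 genes was 0.07 in aged versus young livers, with 6 of 10 above 0, beside 0.00 over all genes tested. In middle-aged versus young livers the median was -0.24, with 8 of 10 below 0, beside 0.01 over all genes. In aged versus middle-aged livers it was 0.35, with 6 of 10 above 0, beside 0.01. Groups did not overlap for 1 of the 10 genes in aged versus young livers (background 7.53%), for none in middle-aged versus young livers (16.0%) and for 3 in aged versus middle-aged livers, where 6.55% of all genes tested did not overlap. Those 3, Atf5, Ddit3 and Ppp1r15a, were all higher in the aged livers, a pattern held by 3.26% of all genes.

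The genes covered a wide span of abundance. Scaled to exon length and library total (counts per kilobase of exon in a common total of gene counts), Atf5 stood at 261 ± 47.9 (SD, n = 12), above 99.3% of genes with counts. Atf4 followed at 39.8 ± 5.99 and Eif4ebp1, which encodes the translational repressor 4E-BP1, at 22.4 ± 3.09. These 3 kept this order in 12 of 12 livers. The remaining levels on this scale were 6.25 ± 3.53 for Asns, 4.21 ± 2.10 for Ddit3, 3.77 ± 1.48 for Ddit4, 3.52 ± 1.28 for Trib3, 3.32 ± 0.474 for Ppp1r15a, 2.09 ± 1.22 for Chac1 and 1.78 ± 0.604 for Sesn2. Neighbours among these 7 changed places between livers, each standing above the next in 6 to 9 of 12, and were not separated by their spread. Genes further apart could be, as Ppp1r15a (2.73 to 3.99) and Sesn2 (0.522 to 2.49) did not overlap.

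Promoter sequence is shown for the genes that carried a known element, because ATF4 is known to act on its targets through composite sites bound together with C/EBP proteins. RefSeq promoters of GRCm38.p6, from 250 bases before to 50 after the start, were matched for 9 of the 10 genes, with 10 promoters in all. The core TGATGNAA of the C/EBP-ATF response element was searched on both strands and lay in 3 of these 10 promoters, those of Trib3, Asns and Chac1, against 3.97% of the 32851 promoters in the table. It lay in 9 of 31 promoters, or 29.0%, of the other ATF4 targets and partners listed for comparison. The cAMP response element TGACGTCA, a palindrome that shares no overlap with these matches, lay in the promoter of Ppp1r15a alone among the 10 and in 1.79% of all promoters. The stretches around the matches are given from 5′ to 3′ on the strand of the gene, with the match in capitals.
Trib3, chr2:152344011-152344082, minus strand, match at +15 to +22 from the start on the opposite strand: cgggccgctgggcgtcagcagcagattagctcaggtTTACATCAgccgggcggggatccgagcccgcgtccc
Asns, chr6:7693189-7693268, minus strand, match at -23 to -16: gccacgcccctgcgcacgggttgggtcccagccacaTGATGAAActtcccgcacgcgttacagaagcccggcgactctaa
Chac1, chr2:119351013-119351092, plus strand, match at -193 to -186 on the opposite strand: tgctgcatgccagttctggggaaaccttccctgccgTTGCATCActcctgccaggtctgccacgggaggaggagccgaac
Ppp1r15a, chr7:45526237-45526316, minus strand, match at -12 to -5: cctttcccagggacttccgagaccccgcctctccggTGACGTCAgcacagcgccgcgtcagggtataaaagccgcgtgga
A match describes letters in these windows and is not evidence of binding in these livers.

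Atf4 encodes the central transcription factor of the response (ENSMUSG00000042406, GRCm38 chromosome 15, 80255184 to 80257541, plus strand). Its normalised counts, read counts divided by the library's size factor, were 866.2, 1089, 848.4 and 805.4 in young replicates 1 to 4. They were 897.6, 800.8, 736.4 and 664.5 in the middle-aged and 1085, 1125, 803.1 and 969.9 in the aged livers. Aged livers held 3 of the 4 highest values, but aged replicate 3 lay within the middle-aged range and just under the lowest young liver. The log2 fold change was 0.36 ± 0.14 (SE) in aged versus middle-aged livers (DESeq2 adjusted p = 0.236), 0.14 ± 0.14 against young livers (adjusted p = 0.691) and -0.22 ± 0.14 in middle-aged versus young livers (adjusted p = 0.361). With the spike-in set as a covariate the first of these passed, at 0.36 with an adjusted p of 0.0368, as did 1.01% of all genes. Across the 3 ages the DESeq2 adjusted p was 0.191, with 0.0270 under that covariate (7.10% of all genes called) and 0.0486 without aged replicate 3.

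Atf5, a relative of Atf4 that is translated under the same control and is abundant in liver (ENSMUSG00000038539, chromosome 7, 44812256 to 44816658, minus strand), was the gene of the 10 that separated the aged livers. Its normalised counts were 4001, 4301, 4606 and 4973 in the young and 4603, 4682, 4081 and 4435 in the middle-aged livers. In the aged livers they were 5563, 6407, 6016 and 5209. Every aged liver lay above every other liver, while young and middle-aged livers overlapped. The means were 4470 ± 416 (SD, n = 4), 4450 ± 267 and 5799 ± 523 with increasing age. Aged versus young the log2 fold change was 0.38 ± 0.09 (SE), or 1.3-fold (DESeq2 adjusted p = 0.00309), and aged versus middle-aged it was 0.38 ± 0.09 (adjusted p = 0.00593). Middle-aged and young livers differed by -0.01 ± 0.09 (adjusted p = 0.981), with a 95% interval from -0.18 to 0.17. The test across the 3 ages gave an adjusted p of 0.000515.

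The call of Atf5 depended on the test. With edgeR's quasi-likelihood test the call was lost, with adjusted p values of 0.0755 against young, 0.185 against middle-aged and 0.0581 across the ages, at fold changes of 0.37 and 0.38. Against young livers the DESeq2 call held without any 1 library, at 0.32 to 0.43. Against middle-aged livers it was lost without middle-aged replicate 3 (0.34, adjusted p = 0.0802), middle-aged replicate 4 (0.38, adjusted p = 0.0794) or aged replicate 3 (0.36, adjusted p = 0.0501). Exons of Atf5 share 82 bp, 4.1% of their length, with the antisense genes Nup62 and Il4i1, and whether the counting used strand is not given in the sources used here. Nup62 had a mean normalised count of 106.9 and a log2 fold change of 0.00 between aged and young livers (adjusted p = 0.999), and Il4i1 had a mean of 0.165.

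Ddit3 encodes CHOP, a transcription factor induced under prolonged stress (ENSMUSG00000025408, chromosome 10, 127290774 to 127296288, plus strand). Young livers had normalised counts of 27.6, 49.67, 69.91 and 80.05 and middle-aged livers 50.64, 67.34, 37.97 and 33.07. Aged livers had 119.4, 138.7, 71.66 and 68.83. The 2 highest values were aged replicates 1 and 2, and aged replicates 3 and 4 lay above every middle-aged liver but within the young range. Aged livers exceeded middle-aged livers 2.10-fold on average, a log2 difference of 1.07 ± 0.35 (SE, DESeq2 adjusted p = 0.114), and 0.81 ± 0.35 higher than in young livers (adjusted p = 0.203). Middle-aged and young livers differed by -0.27 ± 0.36 (adjusted p = 0.732). Across the 3 ages the adjusted p was 0.0645, and it fell under the threshold, to between 0.0374 and 0.0440, without young replicate 1, young replicate 4, middle-aged replicate 2, aged replicate 3 or aged replicate 4. Its exons share 68 bp with the antisense gene Mars, whose log2 fold changes lay between -0.04 and -0.02, and 105 bp with a second Ddit3 entry of the annotation that was not a row of the table.

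Asns encodes asparagine synthetase, which makes asparagine and is a classical ATF4 target (ENSMUSG00000029752, chromosome 6, 7675169 to 7693254, minus strand). Normalised counts were 130.6, 250.9, 77.02 and 206.0 in the young and 173.8, 211.0, 183.7 and 300.7 in the middle-aged livers. In the aged livers they were 259.9, 135.8, 13.98 and 16.09, from 259, 141, 16 and 18 reads. Aged replicates 3 and 4 were far below the other 10 livers, whose lowest value was 77.02, whereas aged replicates 1 and 2 lay within the range of the younger ones. The group differences did not exceed this spread, with log2 fold changes of -0.64 ± 0.81 (SE) against young (DESeq2 adjusted p = 0.781), -1.03 ± 0.81 against middle-aged (adjusted p = 0.791) and 0.39 ± 0.81 in middle-aged versus young livers (adjusted p = 0.837). The SD of its log2 values within an age was 1.30, larger than in 99.2% of the 11804 genes whose normalised counts averaged 10 or more, for which the median was 0.23. Its dispersion was 18.9 times the value fitted for genes of like abundance, a ratio above that of 99.5% of genes.

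Chac1 encodes a glutathione-degrading enzyme induced by ATF4 (ENSMUSG00000027313, chromosome 2, 119351229 to 119354381, plus strand). Its normalised counts were 62.63, 63.68, 24.88 and 24.41 in the young, 32.77, 14.36, 32.67 and 55.12 in the middle-aged and 50.18, 14.45, 15.73 and 4.47 in the aged livers. The 3 ages overlapped, with 3 of 4 aged livers under every young liver and aged replicate 1 among the higher values. The log2 fold changes were -1.05 ± 0.60 (SE) in aged versus young (DESeq2 adjusted p = 0.400), -0.38 ± 0.60 in middle-aged versus young (adjusted p = 0.772) and -0.67 ± 0.60 in aged versus middle-aged livers (adjusted p = 0.836).

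**Figure D2:**
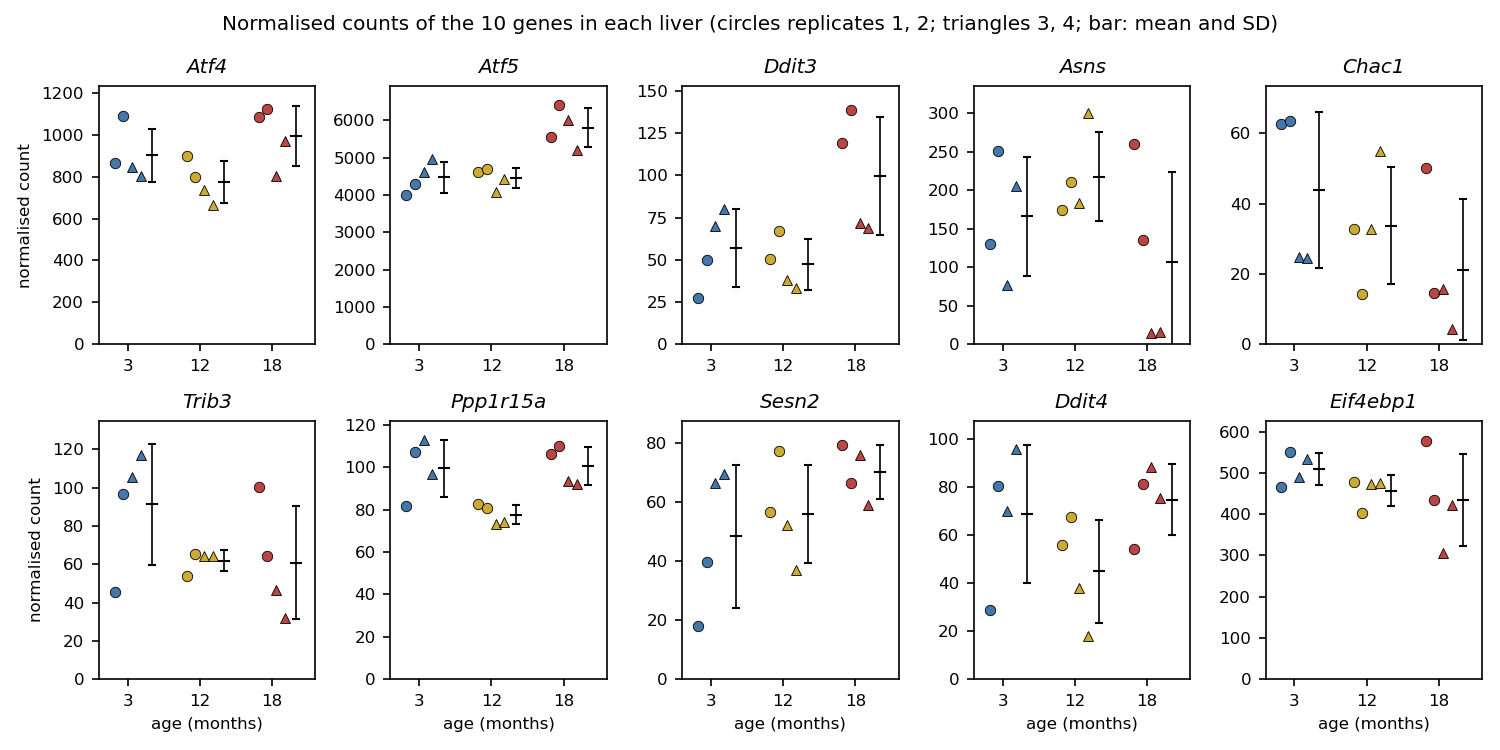
Normalised counts (vertical axis, from 0) of the 10 genes in each liver against age in months, with circles for replicates 1 and 2, triangles for replicates 3 and 4, and bars for the mean and SD of 4 livers (cut at 0 for Asns in aged livers, 106.5 ± 117). The 4 aged livers lie above all others for Atf5, between 5209 and 6407, and aged replicates 3 and 4 lie lowest for Asns, at 13.98 and 16.09.

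Trib3 encodes a pseudokinase that is induced by ATF4 and CHOP and feeds back on them (ENSMUSG00000032715, chromosome 2, 152337422 to 152344032, minus strand). Young livers had 45.64, 96.79, 105.5 and 117.2 normalised counts, middle-aged livers 53.62, 65.54, 64.46 and 64.14, and aged livers 100.4, 64.54, 46.32 and 32.18. Young replicates 2 to 4 and aged replicate 1 stood above the other 8 livers, and the groups overlapped. The log2 fold change was -0.59 ± 0.34 (SE) in aged versus young (DESeq2 adjusted p = 0.412), -0.56 ± 0.34 in middle-aged versus young (adjusted p = 0.341) and -0.03 ± 0.34 in aged versus middle-aged livers (adjusted p = 0.994).

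Ppp1r15a encodes GADD34, a regulatory subunit of the phosphatase that removes phosphate from eIF2 and so ends the response (ENSMUSG00000040435, chromosome 7, 45522916 to 45526268, minus strand). It was one of the least variable of the 10 genes, with a within-age SD of 0.15 on the log2 scale. Normalised counts were 81.73, 107.0, 112.6 and 96.65 in the young, 82.41, 80.80, 73.29 and 74.17 in the middle-aged and 106.4, 109.8, 93.51 and 92.07 in the aged livers. Middle-aged livers lay below all aged livers and overlapped the young ones through young replicate 1. The mean differed by -0.35 ± 0.16 (SE, log2) between middle-aged and young livers, with an unadjusted p of 0.0315 and a DESeq2 adjusted p of 0.179. It differed by 0.37 ± 0.16 between aged and middle-aged livers (adjusted p = 0.350) and by 0.02 ± 0.16 between aged and young livers (adjusted p = 0.981, 95% interval from -0.30 to 0.33). Its exons share 12 bp with the antisense gene Tulp2, which had a mean normalised count of 14.72 and rose by 1.91 in aged versus young livers (DESeq2 adjusted p = 0.00586).

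The last group holds brakes on protein synthesis that act through the kinase complex mTORC1. Sesn2 encodes sestrin 2, a leucine-sensing inhibitor of mTORC1 (ENSMUSG00000028893, chromosome 4, 132492032 to 132510501, minus strand). Its normalised counts were 18.05, 39.48, 66.35 and 69.31 in the young, 56.59, 77.21, 52.10 and 37.08 in the middle-aged and 79.28, 66.46, 76.03 and 59.00 in the aged livers. Young replicate 1 was lowest of the 12 and the 3 ages overlapped, with log2 fold changes of 0.54 ± 0.35 (SE) in aged versus young (DESeq2 adjusted p = 0.495), 0.33 ± 0.35 in aged versus middle-aged (adjusted p = 0.868) and 0.21 ± 0.35 in middle-aged versus young livers (adjusted p = 0.797). Ddit4 encodes REDD1, which inhibits mTORC1 in energy shortage, hypoxia and under glucocorticoids (ENSMUSG00000020108, chromosome 10, 59949669 to 59951834, minus strand). It had 28.66, 80.24, 69.91 and 95.67 normalised counts in the young, 55.60, 67.34, 37.97 and 18.04 in the middle-aged and 54.19, 80.91, 88.26 and 75.09 in the aged livers. Young replicate 1 and middle-aged replicate 4 were the lowest, and no groups were separated. The log2 fold changes were 0.74 ± 0.39 (SE) in aged versus middle-aged (DESeq2 adjusted p = 0.540), -0.62 ± 0.40 in middle-aged versus young (adjusted p = 0.369) and 0.12 ± 0.39 in aged versus young livers (adjusted p = 0.931).

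Eif4ebp1 encodes 4E-BP1, which holds back cap-dependent translation until mTORC1 phosphorylates it, and is itself raised by ATF4 (ENSMUSG00000031490, chromosome 8, 27260329 to 27276674, plus strand). Normalised counts were 464.9, 550.2, 489.4 and 534.0 in the young, 478.6, 402.2, 472.4 and 475.1 in the middle-aged and 577.1, 434.4, 305.0 and 422.8 in the aged livers. Aged livers held both the highest and the lowest value of the 12. The log2 fold change was -0.23 ± 0.16 (SE) in aged versus young (DESeq2 adjusted p = 0.536), -0.16 ± 0.16 in middle-aged versus young (adjusted p = 0.628) and -0.07 ± 0.16 in aged versus middle-aged livers (adjusted p = 0.960).

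Several of these results changed without aged replicate 1. That liver held values above the 12-liver median for 9 of the 10 genes, the most of any liver, while young replicate 1 and middle-aged replicate 3 did so for 2 genes each. Without aged replicate 1, 4 of the 10 genes were called in aged versus young livers by DESeq2. Of all genes tested in that fit 10.5% were called, against 3.58% with all livers. Atf5 remained higher, at 0.39 (adjusted p = 0.00225). Chac1, at -1.92 (adjusted p = 0.0120), Trib3, at -0.94 (adjusted p = 0.0414), and Eif4ebp1, at -0.40 (adjusted p = 0.0401), were then lower in the aged livers. Aged replicate 1 held the highest aged value of each, at 50.18, 100.4 and 577.1 normalised counts, so leaving it out lowered their aged means. Asns stood at -1.59 (adjusted p = 0.179).

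Comparing the ages within each spike-in set, 2 livers against 2, separated the genes further. In aged versus young livers of set A, Ddit3 was higher by 1.76 ± 0.43 (SE, log2, DESeq2 adjusted p = 0.00543) and was the single gene of the 10 called, against 1.24% of all genes. In set B its difference was -0.10 ± 0.43 (adjusted p = 0.987). The test of the difference between the sets gave -1.85 ± 0.52 (adjusted p = 0.0485). Ddit3 thus differed in its aged versus young contrast between replicates 1 and 2 and replicates 3 and 4, with set means of 38.63 and 129.1 in set A and 74.98 and 70.25 in set B. Against middle-aged livers the sets gave similar values, 1.13 ± 0.41 and 0.99 ± 0.44, with a difference of -0.15 ± 0.52 (adjusted p = 1.0, 95% interval from -1.16 to 0.87).

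Asns was the other gene whose contrast depended on the set. Aged versus young it fell by 3.24 on the log2 scale in set B (SE 0.48, DESeq2 adjusted p = 2.68e-09) and differed by 0.06 ± 0.36 in set A (adjusted p = 1.0). The difference between the sets was -3.29 ± 0.67 (adjusted p = 0.000435). Aged versus middle-aged the values were -4.00 ± 0.48 in set B (adjusted p = 2.43e-14) and 0.04 ± 0.36 in set A (adjusted p = 1.0), and they differed by -4.05 ± 0.67 (adjusted p = 6.37e-07). These differences between the sets were called for 0.732% of all genes in aged versus young and 0.996% in aged versus middle-aged livers, and for 2 and 1 of the 10. Middle-aged versus young none of the 10 was called for a difference between the sets by DESeq2, against 0.423% of all genes, and 4 had an unadjusted p under 0.05. The low Asns values were those of 2 aged livers, and other differences between these animals cannot be told apart from the set. Aged replicates 3 and 4 also stood apart from aged replicates 1 and 2 in other genes, picked here after their values were seen. Dbp, a clock output factor, had 18.35 and 52.74 normalised counts in them against 172.6 and 157.0, and Arntl, a core clock factor, 249.1 and 227.9 against 106.4 and 121.4. Pck1, an enzyme of gluconeogenesis, had 5365 and 4249 against 13403 and 19618, and the immediate early gene Junb 123.2 and 91.18 against 1513 and 367.0. The part of these differences in the Asns values was not tested.

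**Figure D3:**
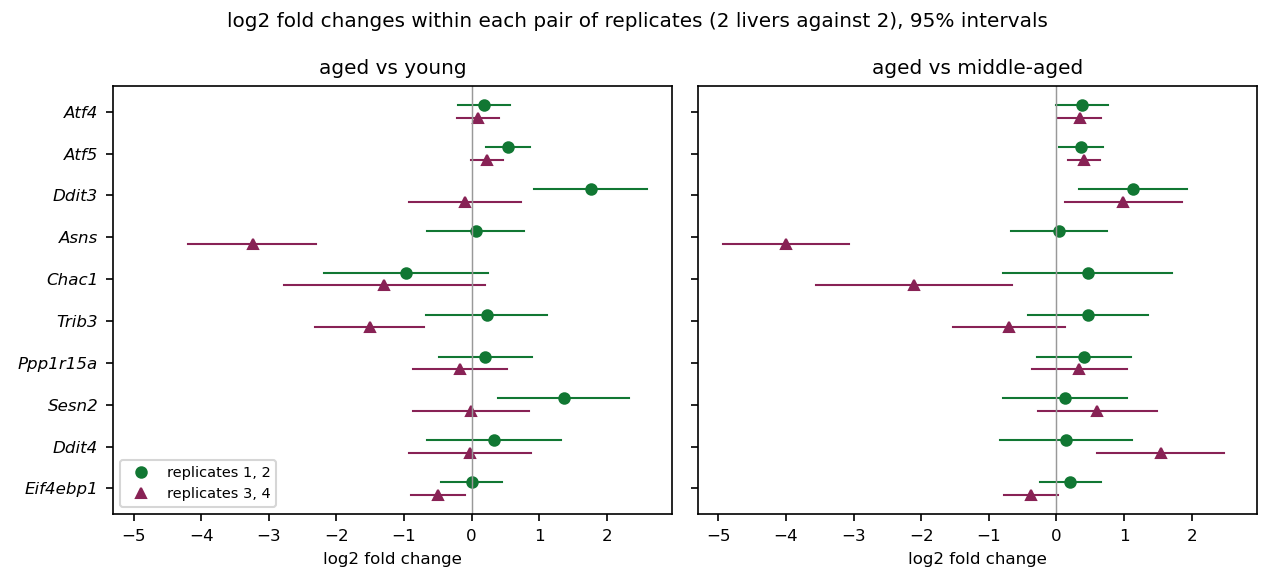
log2 fold changes (horizontal axis) with 95% intervals of the 10 genes within replicates 1 and 2 (circles) and within replicates 3 and 4 (triangles), 2 livers against 2, for aged versus young and aged versus middle-aged livers. Asns lies at 0.06 and -3.24 and Ddit3 at 1.76 and -0.10 in aged versus young livers, whereas Atf4 lies at 0.18 and 0.10 and Atf5 at 0.53 and 0.23.

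Within set B, 2 of the 10 genes were called in aged versus young livers, against 4.22% of all genes, and both were lower with age. Trib3 stood at -1.51 ± 0.41 there (DESeq2 adjusted p = 0.0101), and stood at 0.22 ± 0.45 in set A, a difference between the sets of -1.72 ± 0.58 that did not pass (adjusted p = 0.185). Ddit4 was lower in middle-aged than in young livers of set B, at -1.57 ± 0.48 (adjusted p = 0.0351), where 7 of the 10 genes were tested and 3.64% of all genes were called. Atf5 was called in set B in aged versus middle-aged livers, at 0.41 ± 0.12 (adjusted p = 0.0290, background 2.47%), and stood at 0.37 ± 0.17 in set A, where none of the 10 was called by DESeq2, against 0.307% of all genes, and 2 had an unadjusted p under 0.05. In aged versus young livers Atf5 passed in neither set, at 0.53 ± 0.17 in set A (adjusted p = 0.0860) and 0.23 ± 0.12 in set B (adjusted p = 0.434), and the sets differed by -0.30 ± 0.18 (adjusted p = 0.847).

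The values of the 12 livers showed how the genes varied together. Atf4, Atf5, Ddit3, Sesn2, Ddit4 and Ppp1r15a were correlated with each other in all 15 pairs, with a median Pearson r of 0.66 and a range from 0.14 to 0.86 (log2 scale, n = 12). Trib3, Asns, Chac1 and Eif4ebp1 were correlated in all 6 pairs, with a median of 0.64 and a range from 0.47 to 0.72. Between these groups the 24 pairs had a median of -0.14 and a range from -0.55 to 0.47. The groups were drawn after the correlations were seen, and the points share ages, libraries and size factors, so these values are a description without a test. The median Spearman rho was 0.63, 0.53 and -0.08 for the same sets of pairs.

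**Figure D4:**
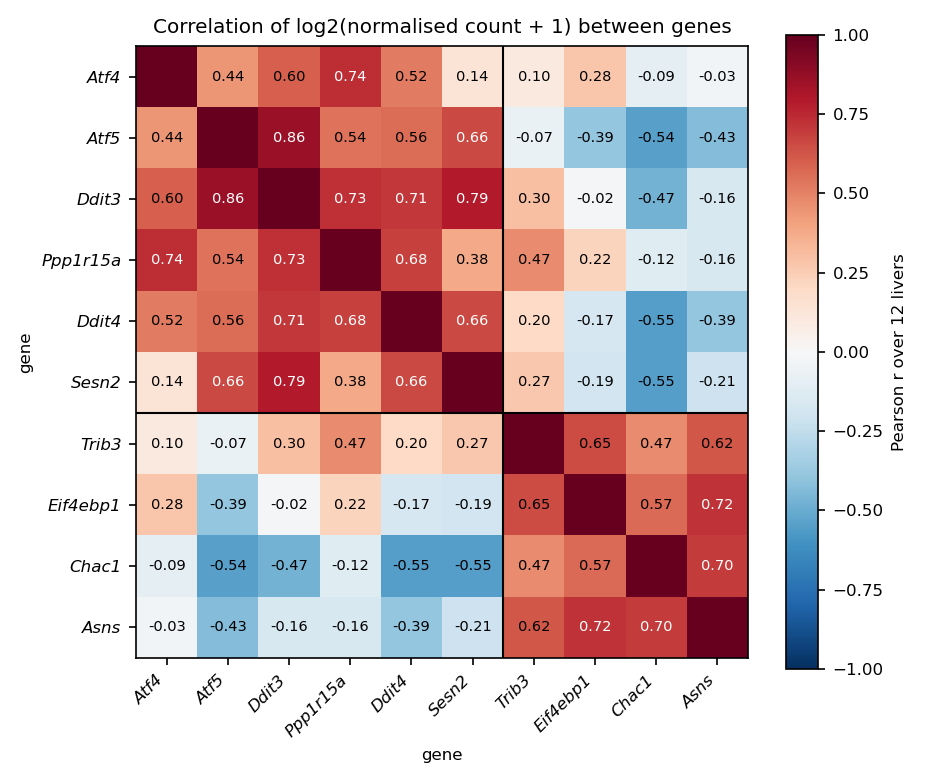
Pearson r between the genes over the 12 livers, from log2(normalised count + 1), in colour from -1 to 1 and in digits, with lines between the group of 6 and the group of 4 genes. Within the groups every value is above 0, from 0.14 to 0.86 and from 0.47 to 0.72.

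The closest pair was Atf5 and Ddit3, with a Pearson r of 0.86 and a Spearman rho of 0.92. It stayed at 0.90 without the 2 livers farthest from the median of Atf5, and at 0.76 once each age was centred on its own mean. Within the spike-in sets it was 0.96 in set A and 0.70 in set B (n = 6 each). Ddit3 and Sesn2 followed at 0.79, with 0.83 and 0.91 within the sets. Among the other 4 genes, Asns and Eif4ebp1 had a Pearson r of 0.72 and Asns and Chac1 one of 0.70, and these fell to 0.29 and 0.36 without the 2 livers farthest from the median of Asns, so they rested on those livers. Atf4 was most closely related to Ppp1r15a, at 0.74, and its r with the targets Trib3, Asns and Chac1 was 0.10, -0.03 and -0.09. These values joined opposite signs, 0.65, 0.22 and 0.18 in set A and -0.32, -0.73 and -0.93 in set B.

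Once each age was centred, the groups were less separate. The median r was 0.56 within the first group, 0.60 within the second and 0.20 between them, with 16 of 24 pairs above 0. Within the first group 14 of 15 pairs were then above 0, and the lowest were Atf4 with Atf5, which went from 0.44 to -0.02, and Atf4 with Sesn2, at 0.01. Between the groups it was 0.22 in set A and -0.42 in set B. Within the groups it was 0.63 and 0.64 in set A and 0.76 and 0.67 in set B. Aged replicates 3 and 4 were above the 12-liver median for 5 and 4 of the first 6 genes and for none of the 4 others, and middle-aged replicates 3 and 4 were above it for none of the first 6. Aged replicate 1, in contrast, was above it for 5 of the 6 and for all 4.

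**Figure D5:**
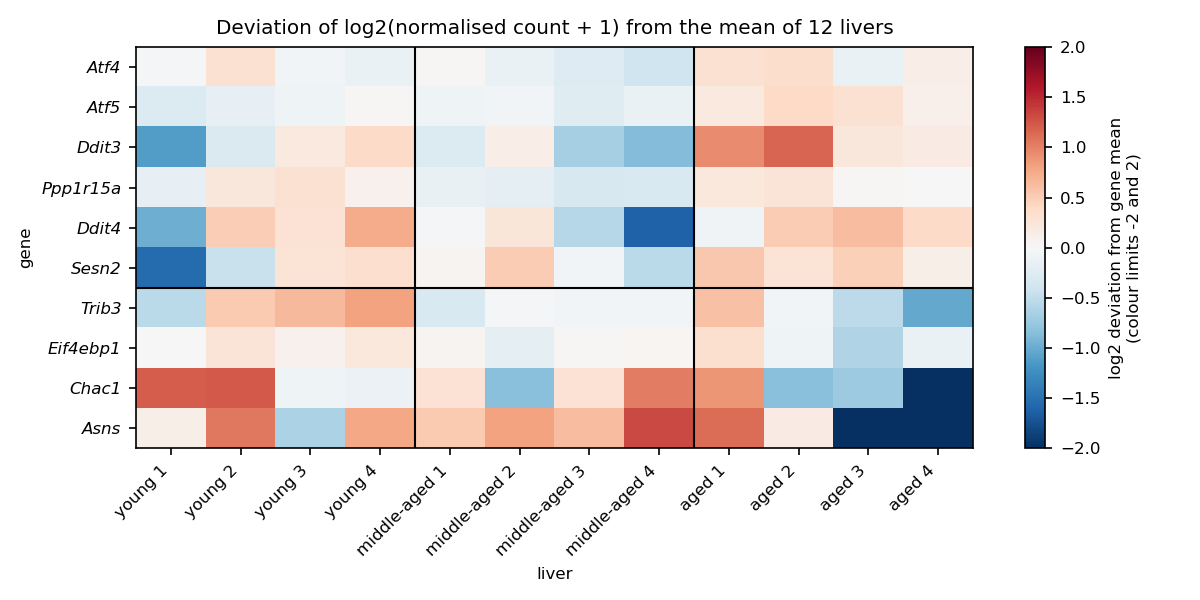
Deviation of log2(normalised count + 1) from the mean of the 12 livers for each gene (rows) and liver (columns), in colour from -2 to 2 with larger deviations shown at the limits, and lines between ages and between the groups of 6 and 4 genes. Aged replicates 3 and 4 are at the lower limit for Asns, and aged replicate 1 is above the mean for all genes but Ddit4.

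The genes of the table most like each of the 10 were taken by Pearson r over the 12 livers. Over 8887 genes whose normalised counts averaged 50 or more, the Pearson r with Atf5 had a median of 0.00 and 95% of values between -0.62 and 0.68. The genes most like Atf5 were Wrnip1 (0.95), Prpf3 (0.93) and Scaf1 (0.90), and those most like Atf4 were Nudt9 (0.92), Usp21 (0.88) and Kat8 (0.87). For Ddit3 they were Efna1 (0.91), Golga5 (0.90) and Nags (0.89). None of these 9 is a member of the ATF4 target list. For Sesn2 the list held Mief2 (0.94), Sgsm2 (0.87) and Gdf15 (0.87), a secreted stress hormone induced by CHOP and ATF4 and the one listed ATF4 target among the 30 genes so chosen, with a Spearman rho of 0.94 and an r of 0.75 without the 2 farthest livers. Ddit4 was most like Nr0b2 (0.90), Orai1 (0.89) and Nasp (0.85).

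Ppp1r15a was most like Zfp330 (0.94), Tssc4 (0.93) and Gm26917 (0.93), and Eif4ebp1 was most like Oaz1 (0.93), Cela1 (0.93) and Tsta3 (0.92). Trib3 was most like Atp13a2 (0.86), Syt11 (0.86) and the immediate early gene Zfp36 (0.85), and Chac1 was most like Smyd1 (0.89), Plk3 (0.87) and Tbcd (0.87). For Asns they were Enho (0.94), Babam2 (0.93) and Susd4 (0.92). Without the 2 livers farthest from the median of Asns these values fell to 0.54, -0.02 and 0.66, so the likeness of Babam2 rested on those livers. All these genes were picked as the highest of 8887 values (8888 for Chac1) over 12 livers, and their r is given as a description.

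Genes upstream of the 10 were called in the comparisons with young livers. Of 18 genes for the eIF2 kinases, eIF2, its exchange factor eIF2B and their regulators, 1 was called lower in aged versus young livers (3.58% of all genes called) and 2 in middle-aged versus young livers (6.41%), and none was called in aged versus middle-aged livers by DESeq2, where 1 had an unadjusted p under 0.05. Eif2s1, which encodes the eIF2 subunit that is phosphorylated in the response, averaged 563.7 ± 25.7 (SD, n = 4), 470.9 ± 15.5 and 457.9 ± 26.9 normalised counts with increasing age. It fell by 0.30 in aged versus young (SE 0.08, log2, DESeq2 adjusted p = 0.00874) and by 0.26 in middle-aged versus young livers (SE 0.08, adjusted p = 0.0240). Eif2s2, which encodes another subunit of eIF2, fell by 0.42 in middle-aged versus young livers (SE 0.14, adjusted p = 0.0405). The first Eif2s1 call was lost without young replicate 1, young replicate 3 or aged replicate 3, at -0.28 to -0.26, and the second without any 1 middle-aged liver or young replicate 1, 3 or 4, at -0.28 to -0.24. The Eif2s2 call was lost without any 1 young or middle-aged liver or aged replicate 4, at -0.45 to -0.36. The median log2 fold change of the list was -0.08, -0.09 and 0.03 in aged versus young, middle-aged versus young and aged versus middle-aged livers.

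Other targets and partners of ATF4 gave single calls in the fit of all 12 livers. All 27 were in the table, and 23, 16 and 12 were tested in these comparisons, with 1, 1 and none called by DESeq2 (3.58%, 6.41% and 1.14% of all genes). An unadjusted p was under 0.05 for 5, 3 and 5, and the medians were -0.20, -0.16 and 0.00. Fgf21, the fasting and stress hormone of the liver, was called in aged versus young livers (DESeq2 adjusted p = 0.00213). Its reads numbered 1, 0, 1 and 0 in the young, 8, 9, 1 and 2 in the middle-aged and 9, 18, 38 and 17 in the aged livers. Every aged liver had more reads than any young one, and aged and middle-aged livers met at 9 reads. The ratio of aged to young CPM was 37.1, with a 95% interval for counting error from 9.96 to 312. Gpt2, a mitochondrial alanine aminotransferase, rose by 0.46 ± 0.13 (SE, log2) in middle-aged versus young livers (adjusted p = 0.0120). The Fgf21 call held without any 1 library, and the Gpt2 call was lost without middle-aged replicate 1 or 2 or young replicate 2 or 3, at 0.37 to 0.45. Within set A, 1 of 16 tested was called lower in aged versus young (1.24% of all genes) and 1 of 16 in aged versus middle-aged livers (0.307%). Within set B, 1 was called higher and 3 lower of 19 in aged versus young livers (4.22%). In aged versus middle-aged livers of set B 1 of 23 was called each way (2.47%). In middle-aged versus young livers 1 of 17 was called each way in set A (2.18%) and 1 of 10 lower in set B (3.64%).

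Paralogues of the 10 genes gave 1 call, in aged versus young livers, where 3.58% of all genes were called. Of 11 paralogues, 9, 8 and 7 were tested in the same order of comparisons, with medians of -0.14, 0.16 and -0.14 and 1 gene with an unadjusted p under 0.05 in each, and Trib1, a relative of Trib3, fell by 0.42 in aged versus young livers (SE 0.13, DESeq2 adjusted p = 0.0328), a call lost without any 1 aged liver, young replicate 1, 2 or 3, or middle-aged replicate 3. In the mTORC1 pathway, on which Sesn2 and Ddit4 act, 18, 17 and 16 of 18 genes were tested. None was called in any comparison by DESeq2, and 2, 2 and 1 had an unadjusted p under 0.05. Its most abundant genes were Akt1s1, Rheb and Eif4e, with means of 603.4, 484.2 and 409.3 normalised counts and aged versus young log2 fold changes of 0.12 ± 0.10, -0.10 ± 0.09 and -0.18 ± 0.09.

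The ATF6 and XBP1 arm of the unfolded protein response acts beside the eIF2 kinases when the endoplasmic reticulum is stressed. In middle-aged versus young livers 3 of its 18 genes were called lower and none higher, against 6.41% of all genes called. Manf fell by 1.08 (SE 0.36, log2, DESeq2 adjusted p = 0.0435), Dnajb11 by 0.59 (SE 0.18, adjusted p = 0.0283) and Pdia6 by 0.47 (SE 0.14, adjusted p = 0.0267). The encoded proteins serve folding in the endoplasmic reticulum. Each of these calls was lost without single libraries, that of Manf without young replicate 2, 3 or 4 or middle-aged replicate 2 or 4, that of Dnajb11 without young replicate 3 or 4 or middle-aged replicate 2, 3 or 4, and that of Pdia6 without young or middle-aged replicate 2, 3 or 4. The median of the list was -0.53, against 0.01 over all genes, with 1 of 18 above 0 and 13 with an unadjusted p under 0.05. None was called in aged versus young livers, where the median was -0.09, or in aged versus middle-aged livers, where it was 0.40, and 1 and 8 had an unadjusted p under 0.05 (DESeq2).

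The median of -0.09 joined opposite directions in the spike-in sets. In set A the median of the ATF6 and XBP1 list in aged versus young livers was 0.39, with 16 of 18 genes above 0 and 2 called higher (1.24% of all genes called). In set B it was -0.54, with none above 0 and 12 called lower (4.22% of all genes called). The difference between the sets was called for 9 of 18 genes, all lower in set B, against 0.732% of all genes tested. In middle-aged versus young livers the medians were -0.18 in set A and -0.70 in set B, where 13 genes were called lower (3.64% of all genes called), and the difference was called for 2 genes (0.423% of all genes).

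In the fit of all 12 livers, genes of daily rhythm were called mostly in comparisons with middle-aged livers. In aged versus young livers 1 of 14 tested was called (3.58% of all genes) and in middle-aged versus young livers 6 of 13 tested (6.41%). In aged versus middle-aged livers 8 of 12 tested were called (1.14%). Npas2, at 2.52, and Ciart, at -2.32, had no adjusted p in this last comparison. Dbp, a clock output factor, had 177.8 ± 37.6 (SD, n = 4), 688.9 ± 167 and 100.2 ± 76.2 normalised counts with increasing age, and Nfil3, its counterpart repressor, 329.2 ± 91.7, 163.2 ± 39.3 and 471.4 ± 66.4. The log2 fold change in aged versus middle-aged livers was -2.78 ± 0.56 (SE, DESeq2 adjusted p = 0.000355) for Dbp and 1.53 ± 0.22 (adjusted p = 1.65e-08) for Nfil3. Per3, Nr1d2, Tef and Cry2 were lower and Arntl and Cry1 higher in that comparison, at -2.31, -1.05, -1.27, -0.62, 1.56 and 1.15. Of these 8 calls, those of Arntl and Cry2 were lost without 4 and 8 of the 12 libraries in turn, aged replicates 3 and 4 among them for both, and those of Dbp, Nfil3, Nr1d2 and Tef held without any 1 library. The middle-aged versus young calls of Nr1d2, Cry2 and Dbp were lost in 5, 4 and 3 of 12 such fits. Those of Nfil3 and Tef held in all 12, and that of Per3 held wherever it was tested. The aged versus young call, that of Cry1, was lost in 4. Within set B, 1 of 13 tested was called higher and 4 lower in aged versus young livers (4.22% of all genes called). In set A 1 of 12 was called higher and none lower in that comparison (1.24%). The difference between the sets was called there for 2 of 13, each lower in set B (0.732%). Time of collection was not given in the labels, and the part of daily rhythm in the values of the 10 genes was not tested.

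In the fit of all 12 livers, genes of glucocorticoid response and of tissue handling were lower in middle-aged livers where they were called. Of 10 glucocorticoid-responsive genes Tsc22d3 alone was called, in middle-aged versus young livers, where 8 were tested. It fell by 1.04 (SE 0.23, log2, DESeq2 adjusted p = 0.000678). Of 15 immediate early genes, which respond within minutes to stress or handling, 12 were tested in that comparison and 3 called. Of all genes 6.41% were called there. Egr1 fell by 3.49 (SE 0.73, adjusted p = 0.000281), Fos by 3.07 (SE 0.87, adjusted p = 0.0137) and Btg2 by 1.45 (SE 0.47, adjusted p = 0.0372). Young livers had 9.553, 84.06, 21.33 and 16.60 normalised counts of Fos, and young replicate 2, the library with the highest mitochondrial and spike-in shares, stood far above the others. Without it Fos stood at -2.01 (adjusted p = 0.221) and Btg2 at -0.95 (adjusted p = 0.303). The Btg2 call was lost in 11 of the 12 fits without 1 library, all but that without aged replicate 1, Fos was not tested in 4 of them, and the calls of Egr1 and Tsc22d3 held in all 12. In that fit neither list had a call in the other comparisons. There 4 and 2 glucocorticoid-responsive and 6 and 2 immediate early genes had an unadjusted p under 0.05 in aged versus young and aged versus middle-aged livers (DESeq2). Within set B, 5 of 9 tested glucocorticoid-responsive and 2 of 11 immediate early genes were called lower in aged versus young livers (4.22% of all genes called). In aged versus middle-aged livers of set B (2.47%), 2 of 9 glucocorticoid-responsive genes were called higher and 3 lower, and 4 of 13 immediate early genes lower. Set A had 2 of 12 immediate early genes called lower in aged versus young livers (1.24%). In middle-aged versus young livers of set A 6 of 12 immediate early genes were called lower, at a median of -1.12 (2.18%). In set B 2 of 11 were called higher and 1 lower there, at a median of 0.00 (3.64%). That difference between the sets was called for 3 of 14, all higher in set B (0.423%). Of glucocorticoid-responsive genes, none of 9 was called there in set A and 3 of 8 were called lower in set B. The part of either list in the values of the 10 genes was not tested.

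Markers of other cell types were compared because in whole tissue a lower share of cells of a type and less RNA per cell cannot be told apart. Summed erythroid markers ranged over 2420 to 7880 CPM in young, 1390 to 5520 in middle-aged and 1030 to 2260 in aged livers. In aged versus young livers 2 of 5, Hbb-bs (-1.67, DESeq2 adjusted p = 0.0498) and Alas2 (-0.60, adjusted p = 0.0255), were called lower, against 3.58% of all genes called. All 5 were below 0 with an unadjusted p under 0.05 (DESeq2) in aged versus young and in aged versus middle-aged livers, at medians of -1.83 and -1.30. None was called in the latter. Lymphoid and plasma cell markers summed to 31.4 to 78.3, 52.3 to 251 and 52.7 to 149 CPM. Of 6, 4 were tested in middle-aged versus young livers and 1, Ighm, rose (1.71, DESeq2 adjusted p = 0.0398), against 6.41% of all genes called. Biliary markers summed to 28.2 to 35.9, 13.0 to 48.4 and 24.1 to 46.5 CPM, and 4 of 5 were tested. Sox9 was called higher in aged than in young (0.86, DESeq2 adjusted p = 0.0169) and in middle-aged livers (0.95, adjusted p = 0.0117). It was the single tested biliary marker above 0 in both comparisons, where the list had medians of -0.19 and -0.10. Krt19 stood at -0.27 and -0.49 and Krt7 at -0.10 and -0.08. Of all genes, 3.58% and 1.14% were called. No gene of 7 Kupffer cell and macrophage markers (271 to 425, 247 to 325 and 319 to 411 CPM), 6 endothelial markers (142 to 198, 150 to 170 and 157 to 178 CPM) or 7 stellate cell and fibroblast markers (157 to 360, 236 to 469 and 206 to 404 CPM) was called in any comparison by DESeq2, nor was any of the 8 hepatocyte markers. The unadjusted p was under 0.05 for at most 2 Kupffer cell and macrophage, 2 endothelial, 0 stellate cell and fibroblast and 3 hepatocyte markers in a comparison. No marker was at 0 in all livers, and the part of these cell types in the values of the 10 genes was not tested. Each marker call was lost in some fits without 1 library, that of Alas2 without young replicate 2 or aged replicate 3 or 4, that of Hbb-bs in 8 of 12 fits, that of Ighm in 6, and those of Sox9 in 5 versus young and 4 versus middle-aged livers, where 2 more fits did not test it.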

How the data were processed

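The authors deposited 1 table of whole-number read counts per gene for 12 livers, not normalised, with 92 spike-in transcripts, which were left out of gene tests and library sizes. The labels' processing notes name GRCm38, STAR 2.5.2b, SAMtools 1.9, featureCounts, DESeq2 1.26.0 and edgeR 3.28.1, without their roles. The extraction and directional library kits are described for young and old livers only, so the preparation of these 12 libraries is uncertain. Symbols, positions and exon lengths came from GENCODE M21, where 53360 of 53465 identifiers were found.

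The 28449 genes with at least 1 count were fitted with DESeq2 1.42.0 in R 4.3.3, all 12 livers together with age as the only term and default filtering. Pairs of ages were compared by the Wald test and the 3 ages by the likelihood ratio test, with Benjamini-Hochberg adjustment over all genes tested and a threshold of 0.05. Alternatives were edgeR 4.0.16 quasi-likelihood tests (filterByExpr, 12099 genes), TMM factors, a filter of 10 counts in 4 samples, the replicate number as a block, the spike-in set as a covariate, fits within each set and fits without each library. Spike-in scaling, edgeR without a filter, the interaction of age and set, and readings of the related lists within sets and without each library were added after seeing the data. Correlations used log2(normalised count + 1).

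The 10 genes and all lists of related genes and markers were chosen with earlier results of these data known. Named list genes were those called in a pairwise comparison, otherwise the most abundant, and for each of the 10 the 3 genes of highest Pearson r. The scripts were tested on simulated data. Intervals and floors on counts cover counting error only. Each library is 1 animal per the labels.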

Additional observations from a re-analysis of the deposited data

Results flagged for a closer look

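In groups of 4 livers, 2 of the 30 groups of the 10 genes held a value that stood apart from the other 3 by a Dixon test, where chance marks about 1 group in 20. Trib3 was lowest in middle-aged replicate 1, at 53.62 normalised counts, with the other middle-aged livers between 64.14 and 65.54. Eif4ebp1 was lowest in middle-aged replicate 2, at 402.2, with the others between 472.4 and 478.6.

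The contrast between ages differed between the spike-in sets, by a DESeq2 interaction of age and set with 2 livers per age and set, for Ddit3 in aged versus young livers (-1.85 on the log2 scale, set B minus set A) and for Asns in aged versus young (-3.29) and aged versus middle-aged livers (-4.05). The Ddit3 result had an adjusted p of 0.0485, close to the threshold.

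Spike-in transcripts, which the main tests left out, took at least 1.589% of counts, the share in middle-aged replicate 3.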

How the results depend on the processing

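Counts of the 10 genes called moved with the settings. In aged versus young livers the count was 1, and became 0 with edgeR's quasi-likelihood test, 2 within set B (4.22% of all genes), 7 with spike-in scaling (58.2% of all genes), 4 with edgeR without a filter (3.09%), and 1 to 4 without single libraries. In middle-aged versus young livers it was 0, and became 1 within set B (3.64%) and 8 with spike-in scaling (62.8% of all genes). In aged versus middle-aged livers it was 1, and became 2 with the set as a covariate (1.01% of all genes), 0 within set A, 2 within set B (2.47%), 0 with spike-in scaling, 0 with edgeR, 2 with edgeR without a filter (1.57%), and 0 to 1 without single libraries. Across the 3 ages it was 1, and became 2 with the filter of 10 counts, 2 with the set as a covariate (7.10% of all genes), 3 within set B (5.13%), 7 with spike-in scaling (66.9% of all genes), 0 with edgeR, 3 with edgeR without a filter (5.25%), and 1 to 3 without single libraries. Over all genes, aged versus young gave 484 calls, and 137 within set A, 8829 with spike-in scaling, 172 with edgeR, 880 with edgeR without a filter, and 237 to 1291 without single libraries. Middle-aged versus young gave 727, and 251 within set A, 305 within set B, 11618 with spike-in scaling, 280 with edgeR, 1154 with edgeR without a filter, and 345 to 1095 without single libraries. Aged versus middle-aged gave 117, and 34 within set A, 307 within set B, 3 with spike-in scaling, 13 with edgeR, 446 with edgeR without a filter, and 45 to 198 without single libraries. The 3 ages gave 865, and 270 within set A, 10527 with spike-in scaling, 234 with edgeR, 1494 with edgeR without a filter, and 503 to 1637 without single libraries. The largest of these counts without single libraries were those without aged replicate 1. Spike-in scaling moved the median log2 fold change of genes with a mean of at least 10 by 1.18, 1.5 and -0.33 in aged versus young, middle-aged versus young and aged versus middle-aged livers, and fold changes of the 10 genes under it were taken relative to that median. Without a filter, edgeR estimated an infinite prior degree of freedom, so that single genes had no spread of their own there. The cause of the other shifts was not tested.

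The replicate number as a block left the 10 genes with 1, 0, 1 and 1 calls in these 4 tests, each time the call of Atf5, and gave 655, 385, 426 and 451 calls over all genes. Deviations of same-numbered livers had correlations from -0.303 to 0.159 over 8888 genes, with 2 of 12 above 0.1, and 1 of 12 livers correlated best with its own number, so the numbers were not taken to pair the livers.

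Of the log2 fold changes of the 10 genes, 578 values under the alternatives kept their direction and side of the threshold, 14 came to pass it, 9 no longer passed and 29 changed sign. In aged versus young livers the changed signs were, within set A, 0.22 for Trib3 and 0.06 for Asns, and within set B, -0.10 for Ddit3, -0.01 for Sesn2, -0.03 for Ddit4 and -0.17 for Ppp1r15a. Ddit4 stood at -0.13 without young replicate 1, and Ppp1r15a at -0.07 without young replicate 1, -0.01 without aged replicate 1 and -0.03 without aged replicate 2. In middle-aged versus young livers Atf5, at -0.01 in the report, stood at 0.01 with TMM factors, 0.16 within set A, 0.01 and 0.05 without young replicates 3 and 4, 0.03 without middle-aged replicate 3, 0.00 with spike-in scaling and 0.01 with edgeR without a filter. Within set A Ddit3 stood at 0.63 and Ddit4 at 0.19, within set B Chac1 at 0.82 and Sesn2 at -0.61, and Sesn2 at -0.07 without young replicate 1. In aged versus middle-aged livers Trib3 stood at 0.47 within set A and at 0.08 and 0.18 without aged replicates 3 and 4, Asns at 0.04 and Chac1 at 0.46 within set A, and Eif4ebp1 at 0.20 within set A and 0.06 without aged replicate 3. None of these values passed the threshold except Atf5 under spike-in scaling, whose test was not relative to the median. Without single libraries the values ranged from -0.13 to 0.33 for Ddit4 in aged versus young livers, from -0.07 to 0.08 for Ppp1r15a there, from -0.06 to 0.05 for Atf5 and -0.07 to 0.44 for Sesn2 in middle-aged versus young livers, and from -0.38 to 0.18 for Trib3 and -0.24 to 0.06 for Eif4ebp1 in aged versus middle-aged livers. The cause was not tested. Ddit3, Trib3, Chac1, Sesn2, Ddit4 and Ppp1r15a had at most 144 reads per library.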

Other observations

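Vldlr, a lipoprotein receptor on the list of ATF4 targets that was chosen here after its values were seen, had 2, 2, 43 and 35 reads in aged replicates 1 to 4, against 4, 2, 5 and 5 in young and 7, 23, 16 and 10 in middle-aged livers. The 2 aged livers with the most Vldlr reads were those with the fewest Asns reads, 16 and 18. Its log2 fold change in aged versus young livers was 2.05 ± 0.86 (SE, DESeq2 adjusted p = 0.177).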
